A study of Mus musculus with 9 samples.

Results

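*Cltc*, *Dnm3* and *Prepl* are genes of the machinery that forms clathrin-coated vesicles and of its regulation, and all 3 were found by symbol among the 689 genes of the deposited RNA-seq table. *Cltc* encodes the clathrin heavy chain, *Dnm3* encodes dynamin 3, and *Prepl* encodes a prolyl endopeptidase-like serine hydrolase. The libraries came from frozen hemibrains of male C57BL/6 mice (C57BL/6J by the labels), with 3 mice in each of 3 groups. By the paper, the sequenced brains were collected after the mice had undergone behavioural tests. Young controls were 5 months old by the labels and received control diet for 6 weeks, and aged controls were 24 months old and received the same diet. Aged-repopulated mice, also 24 months old, received PLX5622, an inhibitor of the CSF1 receptor that microglia need to survive, for 2 weeks, and then control diet for 4 weeks while new microglia filled the brain. Young mice came from JAX and aged mice from NIA, so that age and supplier cannot be told apart, and the labels describe no transgene and name no batch. The comparisons ask how these genes differed with age in control brains, and how aged brains with replaced microglia differed from aged and from young controls.

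Clathrin assembles from heavy and light chains into a lattice that shapes membrane into coated pits, and adaptor proteins link this lattice to lipids and cargo. Dynamins are GTPases that wrap around the neck of the pit and cut the vesicle free, and dynamin 3 is the dynamin that is found mainly in brain and testis, where it is enriched at dendritic spines. PREPL binds the clathrin adaptor AP-1 and takes part in trafficking between the trans-Golgi network and endosomes, and its loss causes a congenital myasthenic syndrome in people. At synapses this machinery recovers vesicle membrane after transmitter release.

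The 3 genes lie on different chromosomes of GRCm38, the assembly also called mm10, to which the authors aligned the reads, and all are on the minus strand. *Cltc* (ENSMUSG00000047126.17) spans chr11:86694351-86757565, *Dnm3* (ENSMUSG00000040265.16) spans chr1:161982453-162478034, and *Prepl* (ENSMUSG00000024127.15) spans chr17:85063470-85090241. The promoter windows, from 250 bases before to 50 bases after the annotated start, are shown because the values of *Cltc* and *Prepl* followed each other across the libraries, whereas *Dnm3* differed from both. They were taken from RefSeq on GRCm38.p6 and are written 5′ to 3′ on the gene's strand, at chr11:86757518-86757817, chr1:162477985-162478284 and chr17:85090225-85090524. Capitals mark matches on either strand to the GC box GGGCGG, the CCAAT box CCAAT, the TATA box TATAA or the cAMP response element core TGACG.
Cltc: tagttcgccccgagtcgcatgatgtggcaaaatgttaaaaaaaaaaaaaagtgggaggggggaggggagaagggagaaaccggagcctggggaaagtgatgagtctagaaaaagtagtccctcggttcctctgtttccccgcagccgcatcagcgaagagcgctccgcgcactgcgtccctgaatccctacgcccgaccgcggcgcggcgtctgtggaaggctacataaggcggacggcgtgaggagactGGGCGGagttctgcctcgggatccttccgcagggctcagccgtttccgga
Prepl: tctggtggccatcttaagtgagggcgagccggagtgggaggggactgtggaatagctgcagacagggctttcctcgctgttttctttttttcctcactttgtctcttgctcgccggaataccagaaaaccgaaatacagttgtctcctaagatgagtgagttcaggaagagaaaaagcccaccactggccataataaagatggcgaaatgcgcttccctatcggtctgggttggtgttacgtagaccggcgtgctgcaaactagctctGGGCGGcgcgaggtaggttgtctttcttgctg
Dnm3: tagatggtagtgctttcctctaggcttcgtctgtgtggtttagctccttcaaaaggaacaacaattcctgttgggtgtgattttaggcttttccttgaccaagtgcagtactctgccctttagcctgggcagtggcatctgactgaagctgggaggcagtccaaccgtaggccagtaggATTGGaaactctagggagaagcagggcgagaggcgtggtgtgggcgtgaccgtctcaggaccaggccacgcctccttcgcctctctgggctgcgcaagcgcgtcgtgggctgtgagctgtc

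The windows of *Cltc* and *Prepl* each held 1 GC box, a motif found in 35.4% of 27025 RefSeq promoters of the same length. The window of *Dnm3* held 1 CCAAT box, found in 37.8% of them. Both GC boxes lie within the 50 bases after the RefSeq start, which differs from the GENCODE M21 start that bounds the gene spans above. Relative to the GENCODE start, the GC box of *Prepl* lies upstream and that of *Cltc* lies across it. The part of these motifs in the levels was not tested. No window held the TATA or TGACG letters, which occur in 25.7% and 20.8% of the promoters. CG dinucleotides numbered 27 for *Cltc*, 15 for *Prepl* and 12 for *Dnm3*, against a median of 7 over all promoters. By its GENCODE start, *Prepl* begins 311 nucleotides from *Camkmt*, a methyltransferase gene on the other strand, which is not among the genes of the table.

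In GENCODE M21 the longest protein-coding transcripts measure 6519 nucleotides in 32 exons for *Cltc*, 7523 in 21 exons for *Dnm3* and 3255 in 14 exons for *Prepl*. *Cltc* shared no stretch of 50 bases with the transcripts of another gene on either strand. At its 3′ end *Prepl* overlaps *Slc3a1*, an amino acid transporter gene on the opposite strand, over 552 of 3206 stretches, and at its 5′ end *Dnm3* overlaps the unclassified transcript *Gm10176* over 306 of 7474. Whether the libraries kept strand is not given in the sources used here, and without strand the reads of such partners cannot be told apart. The antisense RNA *Dnm3os*, the host of *Mir199a-2* and *Mir214*, lies in *Dnm3* but shared 0 exon bases with it.

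Values are RPKM as deposited by the authors, which is the reads of a gene per kilobase of its transcript after scaling to a common number of mapped reads. The table holds only genes that the authors' own model had called on these libraries, so its members were selected on the values tested here. Read counts are not among its columns, so depth is unknown. A search of 400 genes for the steps that whole reads would leave found none, with a best mean cosine of 0.136 to 0.152 where perfect steps give 1. It used GENCODE lengths, and where the authors used other lengths it would miss such steps. Summed over the table, RPKM was between 22242.5 and 22330.4 in young controls, between 23628.9 and 24853.5 in aged controls and between 22861.5 and 23631.8 in aged-repopulated mice. As hemibrain homogenates were sequenced, fewer cells of a type and less RNA per cell cannot be told apart.

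*Prepl* and *Cltc* were among the most abundant transcripts per length in the table, at rank 21 and rank 27 of 689 genes by mean RPKM, and *Dnm3* was at rank 165. The mean over the 9 libraries was 125 RPKM for *Prepl*, 111 RPKM for *Cltc* and 33.7 RPKM for *Dnm3*. This order held within every library, and *Prepl* exceeded *Cltc* by 0.13 to 0.22 on the log2(RPKM + 1) scale. The transcript length that the authors used for each gene is not given in the sources used here, and another length would rescale a gene equally in all libraries. The order of *Prepl* and *Cltc* and the ranks of level therefore depend on these lengths. Replicates lay close together. The within-group SD on the log2 scale was 0.027 for *Cltc*, 0.026 for *Dnm3* and 0.037 for *Prepl*, against a median of 0.055 over the table.

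*Cltc* measured 117.1, 111.4 and 116.4 RPKM in the young controls P07, P08 and P09. The aged controls P10, P11 and P12 had 105.0, 103.6 and 106.6 RPKM. In the aged-repopulated libraries P01, P02 and P03 it was at 111.2, 113.6 and 112.8 RPKM. The aged controls were therefore the 3 lowest libraries for the clathrin heavy chain, and the aged-repopulated libraries overlapped with the lowest young control, P08. *Prepl* had the same arrangement, with 133.2, 125.6 and 130.0 RPKM in young controls. Its values were 120.7, 115.9 and 117.0 RPKM in aged controls and 126.8, 132.6 and 127.0 RPKM in aged-repopulated mice. All 3 aged controls again lay below the 6 other libraries.

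*Dnm3* was arranged differently. It measured 33.8, 32.7 and 33.1 RPKM in P07, P08 and P09, and 32.6, 33.9 and 32.1 RPKM in P10, P11 and P12. The ranges of young and aged controls overlapped, and the aged control P11 and the young control P07 were the highest of these 6 libraries for *Dnm3*, whereas P11 was the lowest of all 9 for *Cltc* and for *Prepl*. The aged-repopulated libraries had 35.1, 35.0 and 35.0 RPKM, above all 6 controls, with an SD of 0.067. P08 was the lowest young control for each of the 3 genes.

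**Figure D1:**
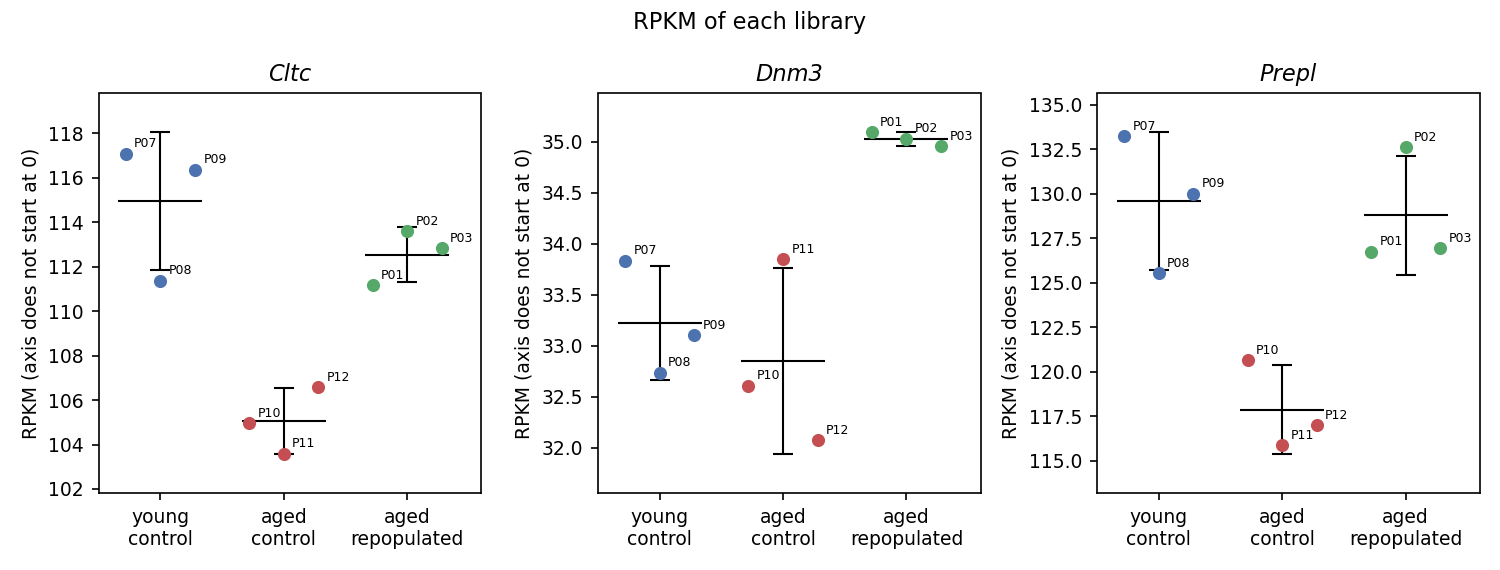
RPKM of *Cltc*, *Dnm3* and *Prepl* in each library, with the mean and SD of the 3 mice of a group as bars; the y axes do not start at 0. For *Cltc* and *Prepl* the aged controls lie below all other libraries, and for *Dnm3* the aged-repopulated libraries lie above all controls.

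With age, *Cltc* and *Prepl* fell and *Dnm3* was not called. *Cltc* was 115 ± 3.11 RPKM (SD, n = 3) in young controls and 105 ± 1.5 (SD, n = 3) in aged controls, a decrease of the mean by 8.60%. On the log2(RPKM + 1) scale its difference was -0.13 (95% interval -0.20 to -0.06), with an adjusted p of 0.011 (limma, Benjamini-Hochberg over 689 genes). *Prepl* fell from 130 ± 3.86 RPKM to 118 ± 2.50 RPKM, or by 9.06%. Its log2 difference was -0.14 (95% interval -0.22 to -0.06; adjusted p = 0.013). The log2 difference of *Dnm3* was -0.02, with a 95% interval from -0.09 to 0.05 and, by limma, adjusted p = 0.648. Thus 2 of the 3 genes were called lower, where 16.5% of the table was called lower and 46.3% higher. Groups did not overlap for 2 of the 3, against 70.1% of the table. The median log2 difference over the table was 0.10. Centring each library on its median moved that median to -0.01 and turned the split of the table from 319 higher and 114 lower to 78 higher and 215 lower, and *Dnm3* was then lower by a log2 difference of -0.12 (adjusted p = 0.011), whereas with a correction for transcript length it was 0.06 higher, with an adjusted p of 0.209. *Cltc* was at -0.24 with centring, at -0.29 with quantile normalization and, no longer called, at -0.07 with the length correction (adjusted p = 0.092). *Prepl* was at -0.24, -0.26 and -0.23 under these scalings, and stayed called.

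After repopulation all 3 genes were higher than in aged controls, by 6.64% to 9.26%, and 0 of 3 had an adjusted p under 0.05 from limma, whereas 3 of 3 had an unadjusted p under 0.05, as had 271 of the 689 genes. *Prepl* had 129 ± 3.34 RPKM (SD, n = 3) in aged-repopulated mice, a mean 9.26% above the aged controls. Its log2 difference was 0.13 (95% interval 0.05 to 0.21), with an unadjusted p of 0.0055 and, by limma, adjusted p = 0.053. *Cltc* had 113 ± 1.24 RPKM, 7.12% above the aged controls, with a log2 difference of 0.10 (95% interval 0.03 to 0.17; adjusted p = 0.071). *Dnm3* had 35.0 ± 0.067 RPKM against 32.8 ± 0.91 in aged controls, 6.64% higher, with a log2 difference of 0.09 (95% interval 0.02 to 0.16; adjusted p = 0.083). The unadjusted p from limma was 0.012 for *Cltc* and 0.017 for *Dnm3*. Over all genes tested, 2.9% were called higher and 5.81% lower in this comparison, with a median log2 difference of -0.05. These are 20 and 40 genes, and the split was 111 higher and 22 lower with each library centred on its median. For each of the 3 genes the libraries of the groups did not overlap, which was so for 37.4% of the table. With each library centred on its median, all 3 were called, with log2 differences of 0.15 for *Cltc*, 0.14 for *Dnm3* and 0.18 for *Prepl* and adjusted p of 0.022, 0.021 and 0.022, respectively. Centring and quantile normalization used only the genes of the table, which were selected for differences. An unequal split of higher and lower genes therefore shifts every gene, and calls gained this way are no separate support for the members. Without the aged control P10, *Prepl* alone of the 3 was called, at 0.14 with an adjusted p of 0.036, and the calls over the table rose from 60 to 141, whereas without the aged-repopulated P03 they numbered 2.

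Against young controls, *Cltc* and *Prepl* of aged-repopulated mice overlapped in RPKM as deposited, whereas *Dnm3* did not. The log2 difference was -0.03 for *Cltc* (95% interval -0.10 to 0.04) and -0.01 for *Prepl* (95% interval -0.09 to 0.07), and limma gave an adjusted p of 0.518 and 0.875. *Dnm3* was 5.42% above young controls, with a log2 difference of 0.07 (95% interval 0.004 to 0.14), an unadjusted p of 0.041 and, by limma, adjusted p = 0.154. No gene of the 3 was called, where 4.21% of the table (29 genes) was called higher and 0.726% (5 genes) lower, or 23 and 38 genes with centring. The groups did not overlap for *Dnm3* alone of the 3, and for 42.7% of the table. These values depended on scaling. Quantile normalization gave log2 differences of -0.13 for *Cltc* (95% interval -0.22 to -0.03; adjusted p = 0.0999), -0.13 for *Prepl* (95% interval -0.24 to -0.01; adjusted p = 0.176) and -0.0008 for *Dnm3*, and centring gave -0.08 for *Cltc* (95% interval -0.16 to -0.003; adjusted p = 0.156) and -0.06 for *Prepl*. All 3 comparisons use the same 9 libraries, and each pair of them shares a group.

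**Figure D2:**
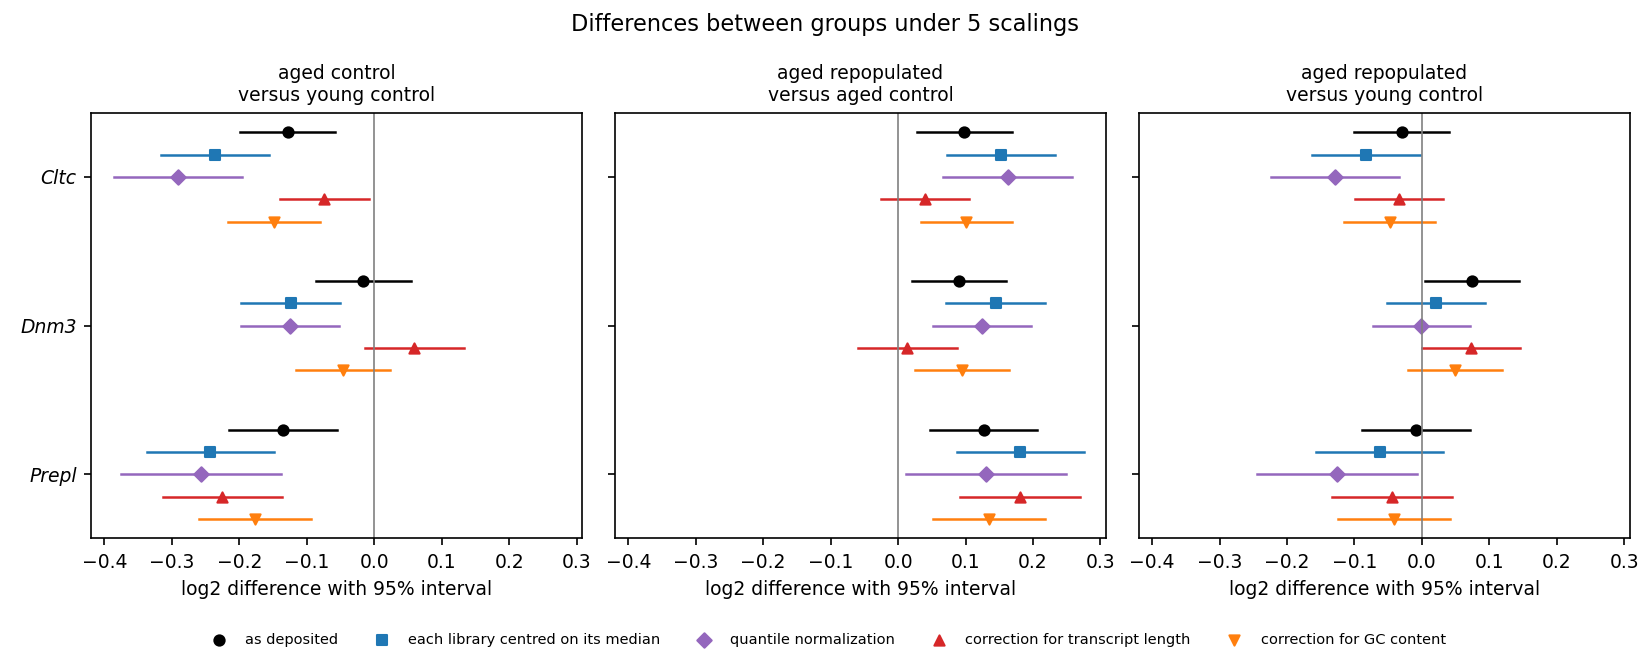
Log2 differences on the log2(RPKM + 1) scale with 95% intervals from limma, for each gene in the 3 comparisons, as deposited and under 4 other scalings. *Cltc* and *Prepl* keep their signs in the first 2 panels under all 5 scalings. *Dnm3* does so only in the second panel, and ranges from -0.13 to 0.06 in the aged against the young controls.

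The separate tests do not show whether the genes differed from one another. Their ratio within a library bears on this, since a factor common to the library cancels apart from the pseudocount of 1. The log2 ratio of *Cltc* over *Dnm3* was 1.76, 1.74 and 1.78 in young controls. In aged controls it was 1.66, 1.59 and 1.70, and in aged-repopulated mice it was 1.64, 1.67 and 1.66. Clathrin heavy chain was thus lower relative to dynamin 3 in all 6 aged libraries than in any young library. The ratio was 0.11 lower in aged controls and 0.10 lower in aged-repopulated mice than in young controls, and it differed by 0.008 between the 2 aged groups. An exact permutation test of the F statistic, which enumerates 1680 ways to assign the libraries to groups, gave p = 0.029, and 0.043 after Benjamini-Hochberg adjustment over the 3 pairs. The smallest p that this test can give is 0.0036.

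For *Prepl* over *Dnm3* the log2 ratios were from 1.91 to 1.95 in young controls, from 1.75 to 1.86 in aged controls and from 1.82 to 1.89 in aged-repopulated mice. The young libraries did not overlap with the aged ones, and the exact permutation test gave p = 0.029, with an adjusted p of 0.043. This ratio shares *Dnm3* with the one before, and *Cltc* and *Prepl* were correlated at 0.94, so the 2 results are not separate. The genes had been selected on these same libraries, and ratios of other genes of the table were not tested. For *Prepl* over *Cltc* the group means were 0.17 ± 0.013 (SD, n = 3), 0.16 ± 0.033 and 0.19 ± 0.027 in young controls, aged controls and aged-repopulated mice, and the exact permutation p was 0.450. These ratios rest on few libraries. With any 1 library left out, the adjusted p of *Prepl* over *Dnm3* was between 0.059 and 0.118, and that of *Cltc* over *Dnm3* was between 0.054 and 0.118 except without P12, where it was 0.043.

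**Figure D3:**
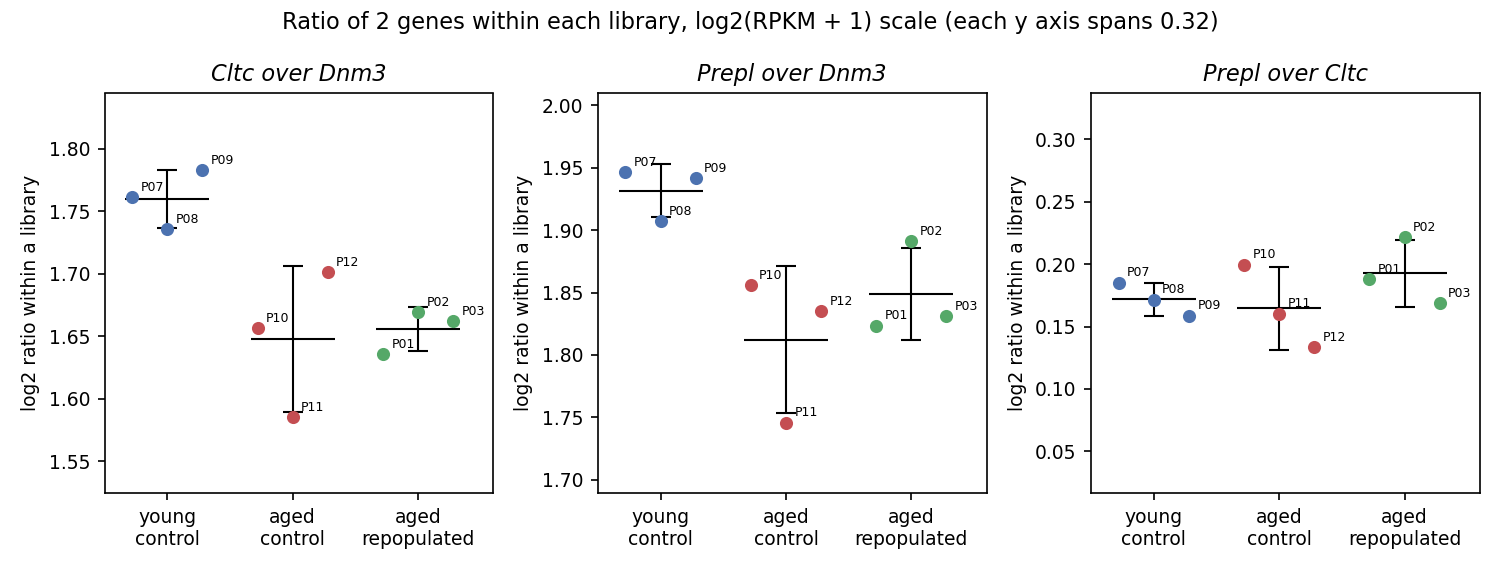
Log2 ratio of 2 genes within each library, on the log2(RPKM + 1) scale, with the mean and SD of the 3 mice of a group as bars; each y axis spans the same range. The ratios to *Dnm3* are higher in the 3 young libraries than in the 6 aged ones, and the ratio of *Prepl* to *Cltc* overlaps between groups.

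Across the table, log2 differences followed transcript length, with Spearman's rho of -0.66 for age and 0.65 for repopulation over 686 genes, which are not independent replicates and share the same libraries. The members were placed unequally on this trend. At the length of *Dnm3*, a loess curve through all genes had 0.08 for repopulation, next to its own 0.09, and -0.08 for age, next to -0.02. At the length of *Cltc* the curve had 0.06 for repopulation and -0.05 for age, next to 0.10 and -0.13. *Prepl*, with the shortest transcript of the 3, lay on the other side of the trend, since the curve had -0.05 for repopulation and 0.09 for age at its length, next to 0.13 and -0.14. When each library was corrected for this trend, *Prepl* was called in both comparisons, with a log2 difference of -0.23 for age (adjusted p of 0.0060 from limma) and of 0.18 for repopulation (adjusted p of 0.048 from limma). For repopulation *Cltc* and *Dnm3* then had log2 differences of 0.04 and 0.01 and were not called, at an adjusted p of 0.503 and 0.874. The part of the length trend in the differences of *Cltc* and *Dnm3* was not tested beyond this correction.

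**Figure D4:**
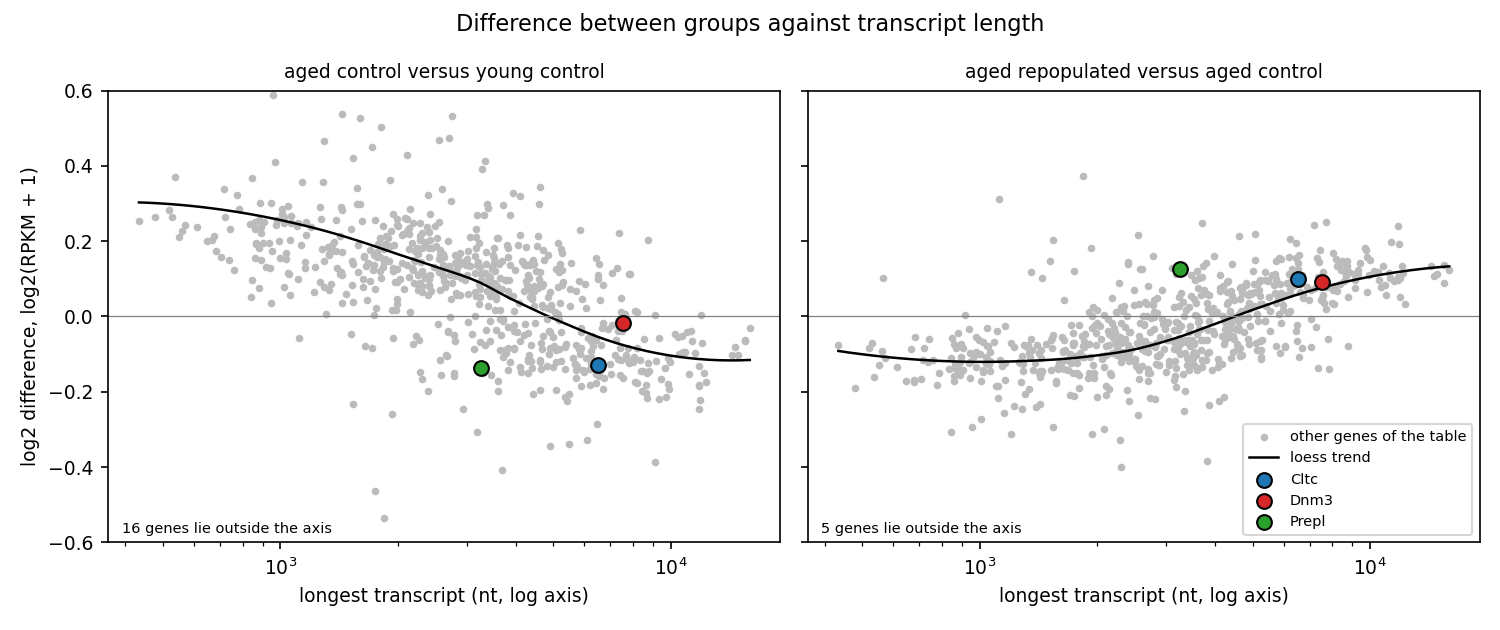
Log2 difference of each gene of the table against the length of its longest protein-coding transcript, or of its longest transcript where none is protein-coding (log axis), with a loess curve, for age (left) and repopulation (right); 16 and 5 genes lie outside the axis. *Prepl* lies below the curve on the left and above it on the right, and *Dnm3* lies near the curve on the right.

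A gene is in the table only where the authors' model called it. The counts of listed genes that follow were not compared with the share called among all genes above 10 RPKM, and are no result about the lists. Of 39 genes listed for the clathrin coat and its adaptors, 6 are in the table, and of 28 listed for scission and uncoating, 3 are. Besides *Cltc* and *Dnm3* these are *Ap1g1* (the γ subunit of AP-1), *Ap3d1* (the δ subunit of AP-3), *Picalm* (which recruits clathrin to lipids), *Gga3* (an adaptor at the trans-Golgi network), *Numb* (an endocytic adaptor of Notch signalling), *Dnm1l* (a dynamin-related GTPase of mitochondrial fission) and *Sh3gl1* (endophilin A2, which binds dynamin). None of these 7 genes had an adjusted p under 0.05 from limma in any of the 3 comparisons. At an unadjusted p under 0.05 there were 0 of 7 with age, 2 with repopulation and 2 between aged-repopulated and young mice, where 479, 271 and 196 of the 689 genes had such a p. Of 37 listed synaptic vesicle and release genes, 0 are in the table, and of 9 listed serine peptidases of the prolyl oligopeptidase family it holds *Prepl* alone. The lists are not complete. The synaptic vesicle gene *Sv2c* is in the table but on no list, with log2 differences of -0.39 with age and 0.11 after repopulation. So is *Arrb2*, whose product binds clathrin, with 0.15 and -0.08.

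After repopulation, 6 of the 7 genes were higher, with a median log2 difference of 0.02 against -0.05 for the table. *Ap3d1* had 35.9 ± 0.44 RPKM (SD, n = 3) against 33.8 ± 0.81 in aged controls, with a log2 difference of 0.08 (limma, adjusted p = 0.092). *Ap1g1*, which encodes a subunit of the adaptor that PREPL binds, had 18.2 ± 0.24 against 17.2 ± 0.50 RPKM, with a log2 difference of 0.08 (adjusted p = 0.114). *Picalm* had 38.7 ± 0.85 against 36.9 ± 0.37 RPKM, with a log2 difference of 0.07 (adjusted p = 0.140). For these 3 of the 7 genes the aged-repopulated libraries did not overlap with the aged controls, against 37.4% of the table. *Dnm1l*, *Sh3gl1* and *Numb* had log2 differences of 0.02, 0.004 and 0.003, and *Gga3* had -0.06. With centring on the library median, *Ap3d1*, *Ap1g1* and *Picalm* were called higher, with log2 differences of 0.14, 0.13 and 0.12, where 111 of 689 genes were called higher. With the length correction 0 of the 7 were called, where only 16 of 686 genes were, and quantile normalization called none of them either. The GC correction called *Ap3d1* alone of the 7, higher by 0.15 (limma, adjusted p = 0.019), where 45 of 686 genes were called higher.

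With age, the 7 genes had log2 differences from -0.04 (*Dnm1l*) to 0.07 (*Sh3gl1*), with a median of 0.01 against 0.10 for the table. *Cltc* and *Prepl* were at -0.13 and -0.14, below this range. Both also lay below the 7 genes with centring (-0.24 and -0.24) and quantile normalization (-0.29 and -0.26). For *Cltc* this was not so with the GC correction (-0.15, *Ap3d1* -0.17) or the length correction (-0.07, *Dnm1l* -0.08, *Sh3gl1* -0.09). Centring called *Dnm1l* (-0.15), *Ap1g1* (-0.14), *Ap3d1* (-0.11) and *Picalm* (-0.10) lower as well, where 215 of 689 genes were called lower. Quantile normalization called *Dnm1l* (-0.12) and *Ap1g1* (-0.11) lower, where 189 of 689 genes were. The GC correction called *Ap3d1* (-0.17), *Sh3gl1* (-0.11) and *Gga3* (-0.08) lower, where 182 of 686 genes were. *Picalm* was 36.6 ± 0.79 RPKM in young and 36.9 ± 0.37 RPKM in aged controls, and with the length correction it was called higher, at 0.10, the opposite of its direction under centring. *Gga3* and *Sh3gl1* had 0.07 each as deposited, the opposite of their direction under the GC correction.

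**Figure D5:**
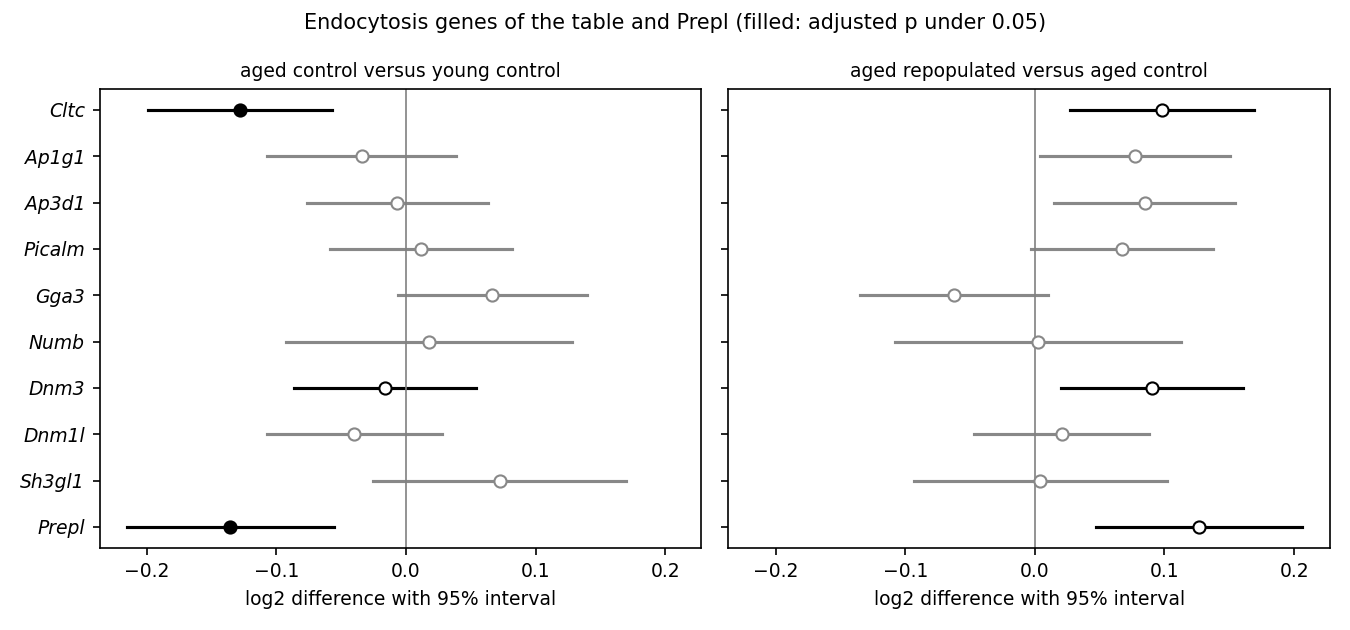
Log2 differences with 95% intervals from limma for the 9 listed coat, adaptor and scission genes of the table and *Prepl*, with members in black. Filled points have an adjusted p under 0.05. *Cltc* and *Prepl* are the filled points with age, and no point is filled for repopulation.

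The genes most like each member over the 9 libraries, by Pearson's correlation of log2 values, were *Shc3* (0.97), *Prepl* (0.94) and *Ptprd* (0.94) for *Cltc*. *Shc3* encodes a neuronal signalling adaptor and *Ptprd* a receptor phosphatase of synapse formation. For *Prepl* they were the translation termination factor *Gspt1* (0.99), the tubulin deglutamylase *Agtpbp1* (0.97) and the protocadherin *Pcdh9* (0.96), with *Cltc* next at 0.94. For *Dnm3* they were the phosphoinositide phosphatase *Sacm1l* (0.94), the deubiquitinase *Usp10* (0.90) and the chaperone *Cryab* (0.89). *Cltc* ranked 133 and *Prepl* 71 of the other genes for *Dnm3*, with correlations of 0.37 and 0.50. These are descriptions over 9 libraries that share the group differences and the scaling.

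Only some markers of brain cell types passed the authors' selection, so that the tissue label was checked only in part. Their counts were not compared with the share of all genes that passed. Of 19 neuronal genes 4 are in the table, and with age *Map2* fell from 116 to 107 RPKM (log2 difference -0.12, adjusted p of 0.020 from limma), whereas *Rbfox3*, *Gad1* and *Snhg11* rose; after repopulation *Rbfox3* was called lower (-0.17). The summed level of these 4 was 676 to 700.3 RPKM in young controls, 736 to 802 in aged controls and 721 to 731 in aged-repopulated mice. Microglial genes (8 of 15 in the table) summed to 155 to 161, 229 to 272 and 219 to 318 RPKM, of which 7 were called higher with age and 0 after repopulation. Astrocyte genes (2 of 13) summed to 422 to 440.3, 473 to 509 and 467 to 504 RPKM, *Opalin* of 15 oligodendrocyte genes was at 15.5 to 19.0, 10.9 to 13.2 and 12.1 to 19.2 RPKM, and endothelial genes (3 of 12) summed to 55.9 to 56.1, 46.6 to 53.7 and 41.9 to 51.5 RPKM. Immediate early genes (5 of 13), which neuronal activity and handling induce, summed to 78.2 to 130 RPKM in young controls, 106 to 170 in aged controls and 59.0 to 71.8 in aged-repopulated mice, and all 5 were called lower after repopulation. The part of these cell types, of the immediate early response and of the earlier behavioural tests in the differences of *Cltc*, *Dnm3* and *Prepl* was not tested. Other defining markers of these cells are not among the genes of the table.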

How the data were processed

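The table holds RNA-seq of 9 hemibrains, 3 in each of 3 groups. The study also sequenced young repopulated mice and aged mice depleted of most microglia, which are not analysed here. The authors called bases with CASAVA 1.8.2, used ELAND to map reads to mm10, expressed levels as RPKM, kept genes above 10 RPKM and deposited the RPKM of the 689 genes called by their linear model of age and microglial state. The table also holds the authors' F and t scores and p-values, which were not used. The counter, the strand and the handling of shared reads are not given in the sources used here.

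From the deposited RPKM, log2(RPKM + 1) of all 9 libraries entered 1 linear model (limma 3.58.1, R 4.3.3) with moderated variance and Benjamini-Hochberg adjustment over 689 genes at 0.05. These adjusted p values describe a list selected on the same libraries. Nothing in the labels states more than separate mice. Ratios were tested by exact permutation. Lengths and GC content of the longest protein-coding transcript, or the longest of any kind for genes with no protein-coding one, came from GENCODE M21 (686 of 689 symbols matched, 19 through an older symbol), and promoters from RefSeq, for all 3 members. The code was tested on simulated data. Python 3.11.15, pandas 2.3.3 and matplotlib 3.10.9 were used for tables and plots.

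The members and the gene lists were chosen with earlier results of these data known. The named genes are the members, all genes of the 4 pathway lists in the table, and the 3 genes most correlated with each member. *Map2*, *Rbfox3*, *Gad1*, *Snhg11* and *Opalin* of the marker lists fall outside this rule and were chosen with their values in view. The same holds for *Sv2c* and *Arrb2*, which are on no list. Alternative settings comprised a pseudocount of 0.1 or 10, untransformed RPKM, median centring, quantile normalization, loess corrections for transcript length or GC content, a minimum mean of 20 RPKM, a fit of the 2 groups compared, no variance moderation, and each library left out in turn.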

Additional observations from a re-analysis of the deposited data

How the results depend on the processing

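No paired analysis was possible because the libraries carry numbers P01 to P12 that no 2 groups share. Of 204 alternative values of the members and their ratios, 168 kept their direction and their side of the threshold. Some of these settings could not change the direction, such as a library left out of the group not compared. Values below are log2 differences, and the cause of a change was not tested. For aged against young controls, *Dnm3* was -0.12 with median centring and -0.13 with quantile normalization, both called, and turned to 0.059 with the length correction, with which *Cltc* was -0.074 and no longer called; *Cltc* and *Prepl* grew to -0.24 and -0.24 with centring and to -0.29 and -0.26 with quantile normalization. For repopulation, *Prepl* was called with a pseudocount of 10 (0.12), centring (0.18), the length correction (0.18) and the GC correction (0.14), and *Cltc* and *Dnm3* were called with centring (0.15 and 0.14) and quantile normalization (0.16 and 0.12). Against young controls, *Dnm3* after repopulation turned to -0.00079 with quantile normalization, with which *Cltc* and *Prepl* moved to -0.13 each, neither called.

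With each library left out in turn, the calls of *Cltc* (-0.15 to -0.11) and *Prepl* (-0.16 to -0.12) with age held in 9 of 9 fits. *Dnm3* lay between -0.038 and 0.00013, the latter without P12. A library left out of the group not compared leaves the difference of a gene unchanged and alters only its spread. For repopulation *Prepl* lay between 0.11 and 0.14, and was called only without P10. Against young controls *Prepl* lay between -0.031 and 0.011, with a positive sign without P01 (0.0023), P03 (0.0011) or P07 (0.011). The aged minus young log2 ratio lay between -0.14 and -0.081 for *Cltc* over *Dnm3* (adjusted exact p under 0.05 in 1 of 9), between -0.14 and -0.086 for *Prepl* over *Dnm3* (0 of 9), and between -0.025 and 0.0082 for *Prepl* over *Cltc*, where the positive value was without P12. With 1 library left out, a group has 2.

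Calls over the table moved more. For age, 433 became 269 to 438 with a library left out, 277 with quantile normalization and 158 with the length correction. For repopulation, 60 became 2 to 141 with a library left out, 21 without the log scale, 133 with centring, 16 with the length correction, and 5 with 2 groups only or without moderation. Between aged-repopulated and young mice, 34 became 11 to 59 with a library left out, 6 without the log scale, 61 with centring, 71 with the length correction, 53 with the GC correction and 9 without moderation. With a minimum of 20 RPKM, 341 genes were tested and 251, 31 and 22 called. Depth was unknown, so counting error could not be given.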
